A study of Mus musculus with 6 samples.

Results

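The 8 acetylcholine receptor genes *Chrm1*, *Chrm2*, *Chrm3*, *Chrm4*, *Chrna4*, *Chrna5*, *Chrna7* and *Chrnb2* were followed across cell classes and conditions in single nuclei of the prelimbic (PL) area of the mouse medial prefrontal cortex (mPFC). They were chosen by name, with no threshold on a measured value but with earlier results of these data known, and are 8 of the 32285 genes counted. The study asked how a running wheel given to the dam after birth, and later housing, alter the PFC of the grown male offspring. There were 6 single-nucleus libraries, each pooled from 3 male C57BL/6 mice that were not brothers, so that no library holds a single animal. Run offspring were reared by dams with a running wheel from postpartum day 2 to 21, and Sed offspring by dams in standard cages. From weaning on day 21 the males lived in groups (GH) or alone (SI), up to adulthood according to the methods, whereas the age label of every sample reads P21. Cohort 1 holds 1 Run GH and 1 Sed GH library, from males that had gone through tube tests of social rank. They were chosen as top and bottom of their group, and the paper does not settle whether this split followed Run and Sed. Cohort 2 holds 4 libraries, GH and SI for Run and the same for Sed, from males without behavioural testing. The labels name no transgene and no drug.

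Acetylcholine reaches the cortex mainly from neurons of the basal forebrain and acts through receptors of separate kinds. Muscarinic receptors are coupled to G proteins: *Chrm1* and *Chrm3* encode M1 and M3, which act through Gq and phospholipase C and tend to excite, and *Chrm2* and *Chrm4* encode M2 and M4, which act through Gi, lower cAMP and dampen activity or transmitter release. Nicotinic receptors are ion channels of several subunits: *Chrna4* and *Chrnb2* encode α4 and β2, the common heteromeric receptor of the brain, *Chrna5* encodes the accessory α5 subunit that joins it, and *Chrna7* encodes α7, which can form a receptor alone. In the PFC these receptors are known for their part in attention.

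Between 4997 and 9936 nuclei per library were kept (42595 in all, 33866 of them pyramidal), with a median of 1637 to 6250 unique molecular identifiers (UMIs) per nucleus. The 2 libraries of cohort 1 stood apart: only 32.9% and 19.0% of their UMIs lay in the kept nuclei, against 56.4 to 61.9% in cohort 2, their *Malat1* level was 28022 and 30670 CPM (the usual scaling of counts to a common total) against 93766 to 116946, and inhibitory marker genes summed to 196 and 181 CPM in their pyramidal nuclei against 33.2 to 51.6. The Sed GH library of cohort 2 was the shallowest. Libraries shared at most 0.43% of their barcodes. Nuclei were clustered with the receptor and other cholinergic genes left out, and 12 classes had at least 20 nuclei in every library: 7 of pyramidal neurons, 4 of inhibitory neurons and astrocytes. As examples of their markers, *Tshz2* stood at 4343 to 6159 CPM in the layer 5 near-projecting (NP) class, *Foxp2* at 533 to 646 CPM in layer 6 corticothalamic (CT), *Grin3a* at 996 to 1263 CPM in SST, *Vip* at 113 to 247 CPM in VIP and *Ndnf* at 129 to 222 CPM in NPY/Lamp5. *Sst* (40.6 to 146 CPM) and *Pvalb* (30.3 to 69.1 CPM) were low in the SST and PV classes, which other markers of their lists also named. The class led by *Deptor* is called by that gene, a choice made after the data were seen, since *Parm1* and *Fezf2* of the same layer 5 list were higher in layer 5 extratelencephalic (ET) neurons. Astrocyte marker genes summed to 779 to 881 CPM in layer 5 NP and 675 to 847 CPM in layer 6 CT. They summed to 151 to 228 CPM in layer 5 ET and 10678 to 12904 CPM in astrocytes. Pyramidal markers were lowest of the 7 pyramidal classes in layer 5 NP (1418 to 1473 CPM). The source of these differences was not tested. A level below is the CPM of a gene among all UMIs of a class in 1 library, and a mean is over 6 libraries with their SD. The classes are clusters of the same nuclei, so levels between classes are a description with no test.

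The stretches just before the gene starts are shown for the 4 receptors whose levels differed most between classes. They come from RefSeq (GRCm38.p6, the build of the counts), which matched 7 of the 8 genes, and each is cut at the first base of the gene in the annotation used here. Capitals mark every CG dinucleotide, which reads the same on both strands. *Chrm2* is shown from chr6:36387834-36388083 (plus strand), *Chrm3* from chr13:10360848-10361053 (minus strand), *Chrna5* from chr9:54980630-54980879 (plus strand) and *Chrna7* from chr7:63212570-63212776 (minus strand).
Chrm2: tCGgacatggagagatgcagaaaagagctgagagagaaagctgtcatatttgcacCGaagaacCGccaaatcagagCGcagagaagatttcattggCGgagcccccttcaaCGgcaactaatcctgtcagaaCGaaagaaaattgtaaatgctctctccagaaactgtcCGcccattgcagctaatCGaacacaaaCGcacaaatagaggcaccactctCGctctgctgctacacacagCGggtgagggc
Chrm3: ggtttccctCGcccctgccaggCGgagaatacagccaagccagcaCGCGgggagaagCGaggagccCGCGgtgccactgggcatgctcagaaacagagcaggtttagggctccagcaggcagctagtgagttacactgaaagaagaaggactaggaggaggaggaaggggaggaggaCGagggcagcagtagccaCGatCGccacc
Chrna5: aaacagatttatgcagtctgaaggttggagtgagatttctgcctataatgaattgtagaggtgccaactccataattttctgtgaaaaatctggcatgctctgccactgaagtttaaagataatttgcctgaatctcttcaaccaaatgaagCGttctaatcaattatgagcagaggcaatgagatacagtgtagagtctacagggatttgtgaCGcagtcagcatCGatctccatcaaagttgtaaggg
Chrna7: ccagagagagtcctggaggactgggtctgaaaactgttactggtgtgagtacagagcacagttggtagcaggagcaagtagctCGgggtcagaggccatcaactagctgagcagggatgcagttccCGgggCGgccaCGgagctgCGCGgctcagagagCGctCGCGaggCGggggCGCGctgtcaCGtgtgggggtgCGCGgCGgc
For *Chrm3* and *Chrna7* the RefSeq start lies inside the gene as annotated here, so only 206 and 207 bases are shown. In the full 250 bases before the RefSeq starts, *Chrna7* held 25 CG, *Chrm2* 12, *Chrm3* 10 and *Chrna5* 3. The *Chrna7* stretch shown holds 16 of its 25, while those of *Chrm2*, *Chrm3* and *Chrna5* hold all of theirs. The median of all 32851 promoters of this table was 6 (quartiles 2 and 16), and 92.13% of them held at least 1 CG. *Chrna5* has another start in the table, inside the gene as annotated here and so not printed, which held 17 CG, so that its count depends on the start taken. No readout of these data bears on the promoters themselves.

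Over all nuclei the receptors spanned a wide range of UMIs: 133588 for *Chrm3*, 12952 for *Chrm2*, 9103 for *Chrna7*, 8425 for *Chrm1*, 865 for *Chrna4*, 711 for *Chrnb2*, 636 for *Chrna5* and 33 for *Chrm4*. On the CPM scale *Chrm3* stood at 658 ± 106, *Chrm2* at 65.6 ± 3.85 and *Chrna7* at 44.6 ± 5.78 CPM (SD, n = 6), and *Chrm1* ranged from 29.2 to 57.1 CPM. The counts include intronic reads, so a long gene gathers more of them: *Chrm3* spans 485.4 kb (chr13:9875486-10360847, minus strand) and *Chrm1* 19.8 kb (chr19:8663789-8683587, plus strand). Per kb of gene span the order began with *Chrm1* at 2.02 CPM per kb, then *Chrm3* at 1.35, *Chrm2* at 0.468 and *Chrna7* at 0.392 CPM per kb. *Chrnb2* (0.190), *Chrna4* (0.162), *Chrna5* (0.123) and *Chrm4* (0.0950 CPM per kb) followed, though the annotated span of *Chrm4* may be incomplete. The nicotinic α4, β2 and α5 genes therefore lay within a narrow band of each other per length, below the Gq-coupled genes *Chrm1* and *Chrm3*.

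**Figure D1:**
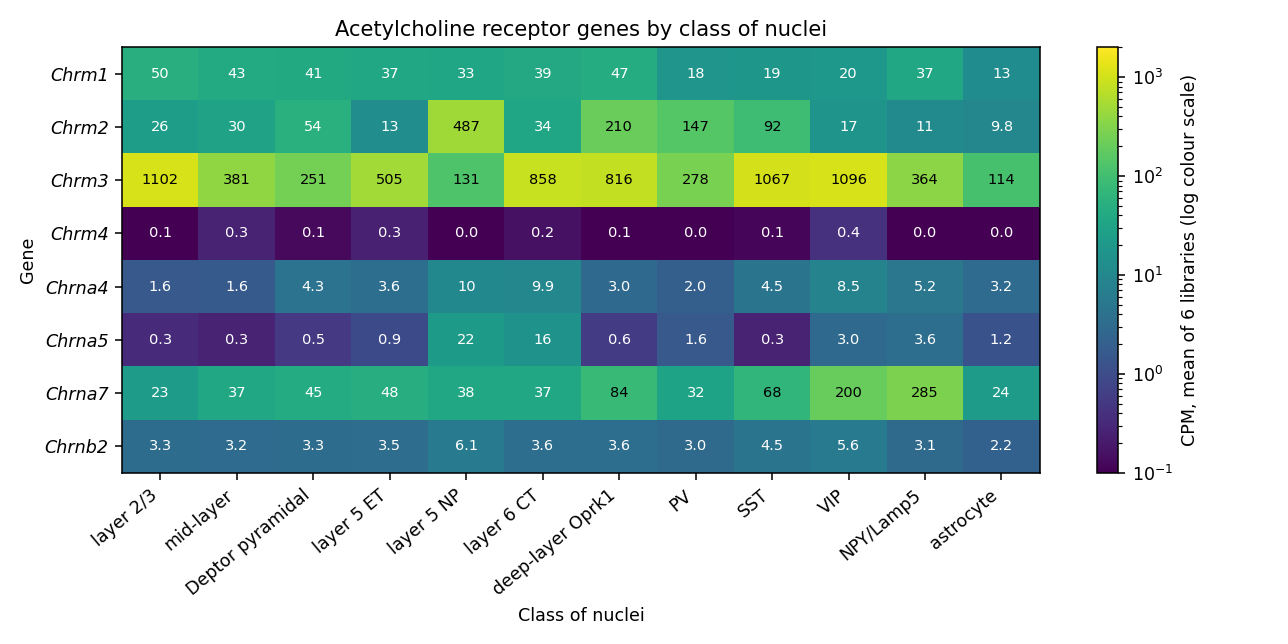
Mean CPM over 6 libraries (colour, log scale) of the 8 receptor genes (rows) in the 12 cell classes (columns). Read along a row: *Chrm2* peaks at 487 CPM in layer 5 NP, where *Chrm3* is at 131 CPM, and *Chrna5* exceeds 10 CPM in layer 5 NP and layer 6 CT alone among the 12 classes.

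Of the Gq-coupled receptors, *Chrm3* differed widely between classes. It was high in layer 2/3 pyramidal (1102 ± 197 CPM), VIP (1096 ± 114) and SST neurons (1067 ± 85.4), lower in layer 6 CT (858 ± 47.2) and deep-layer *Oprk1* neurons (816 ± 106), and lower again in layer 5 ET neurons (505 ± 57.7 CPM). The SST values did not overlap those of layer 6 CT, those of the *Oprk1* class did not overlap layer 5 ET, and those of layer 5 ET did not overlap the mid-layer class (381 ± 41.7 CPM), whereas the leading trio overlapped one another. Layer 2/3 (817 to 1403 CPM) also overlapped layer 6 CT (820 to 949 CPM) and lay above it in 5 of 6 libraries. NPY/Lamp5 (364 ± 35.8), PV (278 ± 48.8) and *Deptor* neurons (251 ± 72.4 CPM) came next. Layer 5 NP (131 ± 69.8 CPM) and astrocytes (114 ± 95.6 CPM) were last and overlapped. In layer 2/3 the 6 libraries read, with cohort 1 first, 1403 (Run GH), 1176 (Sed GH), 977 (Run GH), 1146 (Sed GH), 817 (Run SI) and 1094 CPM (Sed SI). In layer 5 NP the same libraries read 193, 241, 97.4, 70.0, 116 and 72.1 CPM, so every library put layer 5 NP far below layer 2/3, and the highest NP values were those of cohort 1, whose pyramidal nuclei also carried more inhibitory markers. The part of free RNA in these NP values was not tested.

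*Chrm1* was spread far more evenly. Pyramidal classes ranged from 50.0 ± 15.1 CPM in layer 2/3 to 33.5 ± 8.73 CPM in layer 5 NP, NPY/Lamp5 stood at 36.8 ± 14.4, and VIP (19.6 ± 11.5), SST (18.7 ± 3.91), PV (17.8 ± 9.50) and astrocytes (12.5 ± 5.68 CPM) were lowest, but every pair of neighbours in this order overlapped. Over all pyramidal nuclei the level was 58.4 and 61.7 CPM in the cohort 1 libraries and 31.0 to 37.2 CPM in the 4 of cohort 2. Barcodes with under 100 UMIs, which hold free RNA, carried *Chrm1* at 53.4 to 79.6 CPM and stood above the nuclei in 5 of 6 libraries. In cohort 1 the levels were close (57.8 in free RNA against 53.5 CPM in nuclei for Run GH, and 56.4 against 57.1 CPM for Sed GH), while in cohort 2 free RNA held 53.4 to 79.6 CPM against 29.2 to 34.1 CPM in nuclei.

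Of the Gi-coupled receptors, *Chrm2* (chr6:36388084-36528414, plus strand) marked layer 5 NP neurons. The NP values were 519, 525, 459, 426, 431 and 560 CPM in the library order given above, a mean of 487 ± 55.5. Each exceeded the highest value of any other class. The *Oprk1* class followed at 210 ± 23.5 CPM (the NP mean was 2.31-fold higher), with 235, 217, 224, 215, 205 and 167 CPM. PV neurons (147 ± 29.0 CPM, range 112 to 199) and SST neurons (91.7 ± 24.0 CPM, range 61.9 to 133) came next, and *Deptor* neurons at 54.2 ± 9.39 CPM. Although these ranges overlapped from one class to the next, the *Oprk1*, PV, SST and *Deptor* classes each exceeded their follower in 6 of 6 libraries. Layer 5 ET neurons, which share layer 5 with the NP class, stood at 12.7 ± 5.86 CPM, VIP at 17.0 and NPY/Lamp5 at 11.3 CPM. *Chrm2* and *Chrm3* were therefore unlike in layer 5 NP, the top class of the former and the lowest neuronal class of the latter.

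*Chrm4*, the M4 gene, was close to the detection limit. Its 33 UMIs over all nuclei gave at most 0.362 CPM in a library, the Sed GH library of cohort 2 had 0 UMIs (which allows up to 0.267 CPM at 3 counts), and layer 5 NP, PV, NPY/Lamp5 and astrocytes had none in any library. Its annotated span is 1.44 kb (chr2:91927249-91928688, plus strand), the shortest of the 8. The RefSeq promoter of *Chrm4* lies apart from it, upstream at chr2:91921939-91922188, so this span may leave out part of the gene. The part of this in the low count was not tested, and no order of classes was read.

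**Figure D2:**
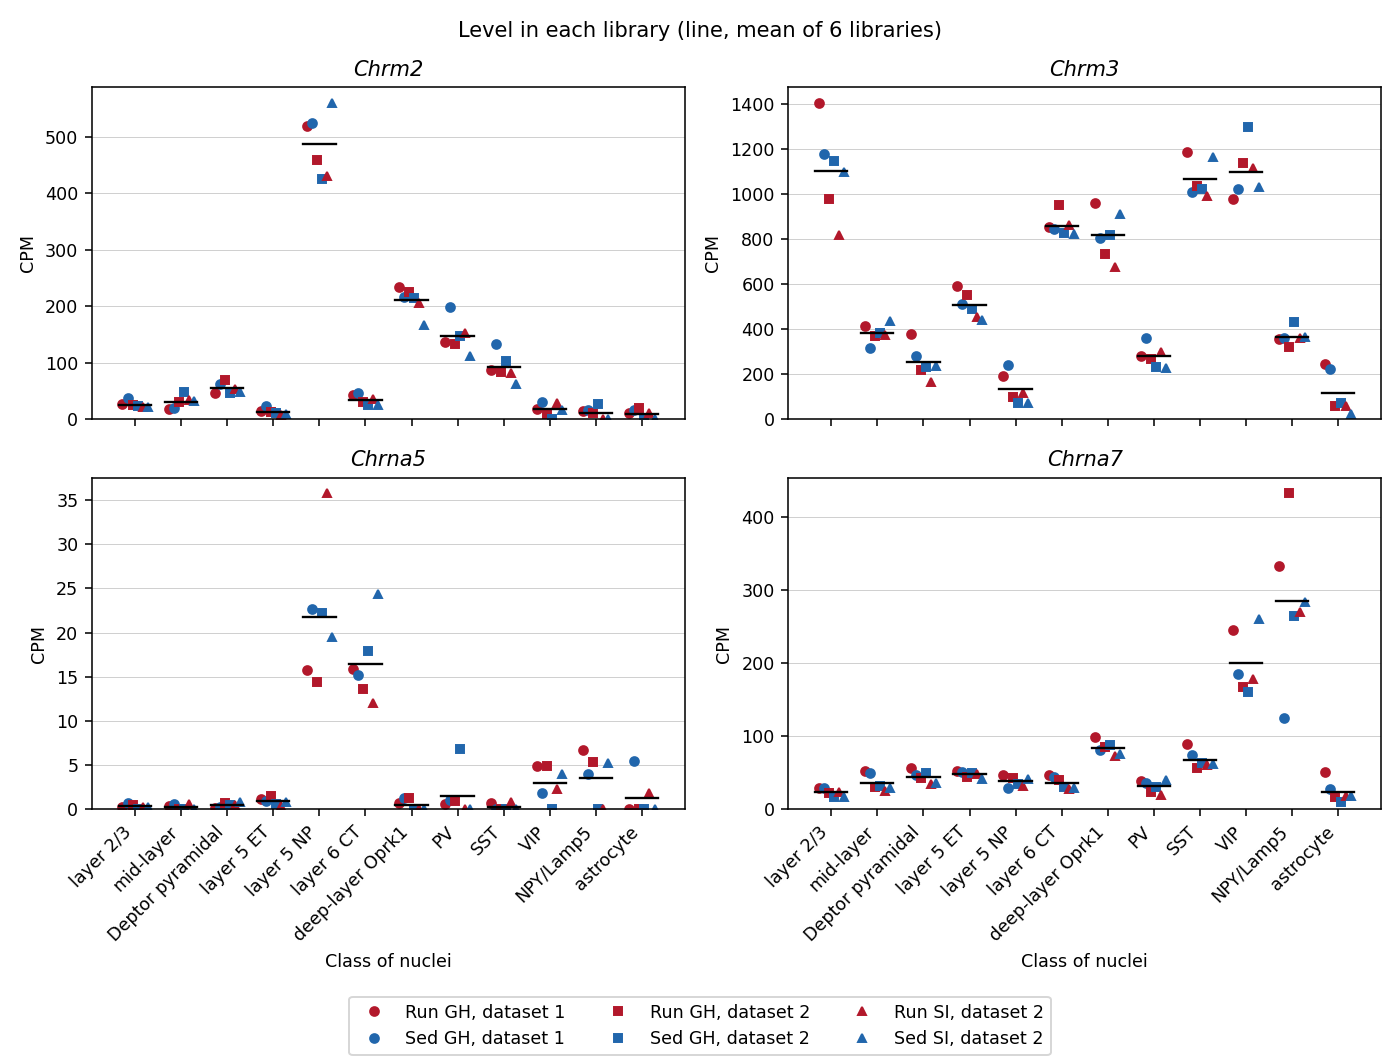
CPM of *Chrm2*, *Chrm3*, *Chrna5* and *Chrna7* in each of the 6 libraries (points, with symbols for the group and cohort) in the 12 classes, with lines at the mean. All 6 layer 5 NP points of *Chrm2* (426 to 560 CPM) lie above every other class, and all 6 VIP points of *Chrna7* (160 to 261 CPM) lie above every class except NPY/Lamp5.

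Among the nicotinic genes, *Chrna7* (chr7:63098692-63212569, minus strand) was a gene of VIP and NPY/Lamp5 inhibitory neurons. NPY/Lamp5 neurons, the rarest class at 490 nuclei, stood at 285 ± 101 CPM and ranged from 125 (Sed GH, cohort 1) to 433 (Run GH, cohort 2). VIP neurons stood at 200 ± 42.6 CPM (246, 186, 168, 160, 179 and 261 in the library order above) and overlapped them. The VIP values did not overlap those of the next class, the *Oprk1* pyramidal neurons at 83.7 ± 9.40 CPM, 2.39-fold below VIP. SST neurons followed at 67.8 ± 12.2 CPM without overlapping layer 5 ET (48.0 CPM), and the remaining classes lay between 23.2 ± 5.94 CPM in layer 2/3 and 48.0. PV neurons, at 31.8 CPM, were the one inhibitory class among these.

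Among the 12 classes, *Chrna5* (chr9:54980880-55007779, plus strand) was highest in layer 5 NP and layer 6 CT pyramidal neurons. Layer 5 NP held 21.7 ± 7.63 CPM (15.8, 22.6, 14.4, 22.3, 35.7 and 19.5 CPM) and layer 6 CT 16.5 ± 4.32 CPM (15.9, 15.2, 13.6, 17.9, 12.1 and 24.3 CPM). They overlapped each other, but the layer 6 CT values did not overlap the next class, NPY/Lamp5 at 3.57 CPM, with a ratio of the means of 4.62. VIP stood at 2.98 CPM, PV at 1.56 and layer 5 ET at 0.92 CPM, and the deep-layer *Oprk1* class at 0.55 CPM (10 UMIs). Outside the 12 classes, layer 6b nuclei of cohort 2 held *Chrna5* at 14.0 (Run GH, 2 UMIs), 0 (Sed GH), 12.1 (Run SI, 8 UMIs) and 6.94 CPM (Sed SI, 1 UMI). *Chrna4*, whose product α5 joins, had the same top pair, layer 5 NP at 10.2 ± 3.55 CPM and layer 6 CT at 9.85 ± 3.95 CPM, then VIP at 8.52 ± 6.17 CPM and down to 1.57 CPM in layer 2/3, but neighbours overlapped throughout. In both top classes the Sed GH library of cohort 1 was the high one, at 17.3 and 17.6 CPM against at most 10.1 elsewhere. *Chrnb2*, the partner of *Chrna4*, ran from 6.14 ± 2.62 CPM in layer 5 NP to 2.16 ± 1.91 CPM in astrocytes, with overlap at every step, and overlaps *Adar* in the annotation, so reads of the pair may be split. Free RNA barcodes held *Chrna4* (8.84 to 20.5 CPM) and *Chrnb2* (6.76 to 13.9 CPM) above the level in nuclei in 6 of 6 libraries, but *Chrna5* (1.59 to 3.10 CPM) below it in all 6.

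Shares of nuclei with at least 1 UMI, given as means over libraries, were led by the same class as the levels for *Chrm1*, *Chrm2*, *Chrm3*, *Chrna4*, *Chrna5* and *Chrna7*, but not for *Chrnb2* (VIP, 0.761%, against 0.679% of layer 5 NP), once each nucleus had been thinned to 1000 UMIs (nuclei with fewer were left out: 68 of layer 5 NP, 240 of layer 2/3 and 12 of microglia). For *Chrna4* this held at 1000 UMIs (1.51% of layer 5 NP) but not at 1500 UMIs, where VIP led with 1.588% against 1.385%, nor before thinning, where layer 6 CT led with 4.71% against 3.70%. For *Chrm1* it did not hold before thinning, where *Deptor* neurons led with 21.2% against 20.3% of layer 2/3. *Chrm2* was found in 35.4% of layer 5 NP nuclei (31.5 to 39.3% per library, and 35.9 to 72.9% before thinning), 17.3% of *Oprk1*, 11.2% of PV and 0.802% of astrocyte nuclei. Layer 6b nuclei, named in cohort 2 alone, gave 18.9% (14.1 to 23.1%). Microglia, assumed without a test to lack the receptors, gave 3.98% (0 to 6.67%). Their median depth of 1271 to 3551 UMIs per library lay close to the 1209 to 4772 of layer 5 NP. *Chrna7* was found in 19.4% of NPY/Lamp5 and 16.7% of VIP nuclei against 3.67% of microglia and 2.59% of astrocytes. *Chrna5* was found in 2.91% of layer 5 NP and 1.69% of layer 6 CT nuclei (means over libraries, from 45 of 1490 and 80 of 5035 nuclei in all), against 1 of 2765 *Oprk1* nuclei and 0 of 246 microglia. *Chrm1* reached 5.14% in layer 2/3 (3.22 to 9.25%) against 1.32% of microglia.

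For *Chrm3* the shares were 60.4% of layer 2/3, 59.0% of VIP, 57.0% of SST, 51.4% of layer 6 CT and 50.4% of *Oprk1* nuclei, but microglia reached 37.5% (24.4 to 55.6%). Layer 5 NP (10.2%), astrocytes (9.38%) and oligodendrocyte precursors (6.07%) lay well below microglia, so microglia were no common floor for this gene. The shares of layer 5 ET (37.2%), NPY/Lamp5 (27.9%), mid-layer (27.7%), PV (22.5%) and *Deptor* (19.3%) nuclei lay between those of astrocytes and microglia. In cohort 2 microglia held *Chrm3* at 453 (Run GH), 653 (Sed GH), 321 (Run SI) and 687 CPM (Sed SI). Free RNA of these libraries held 330, 130, 314 and 229 CPM. In cohort 1 microglia held 415 (Run GH) and 474 CPM (Sed GH), below free RNA at 639 and 636 CPM. The source of *Chrm3* UMIs in the microglia nuclei was not tested.

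**Figure D3:**
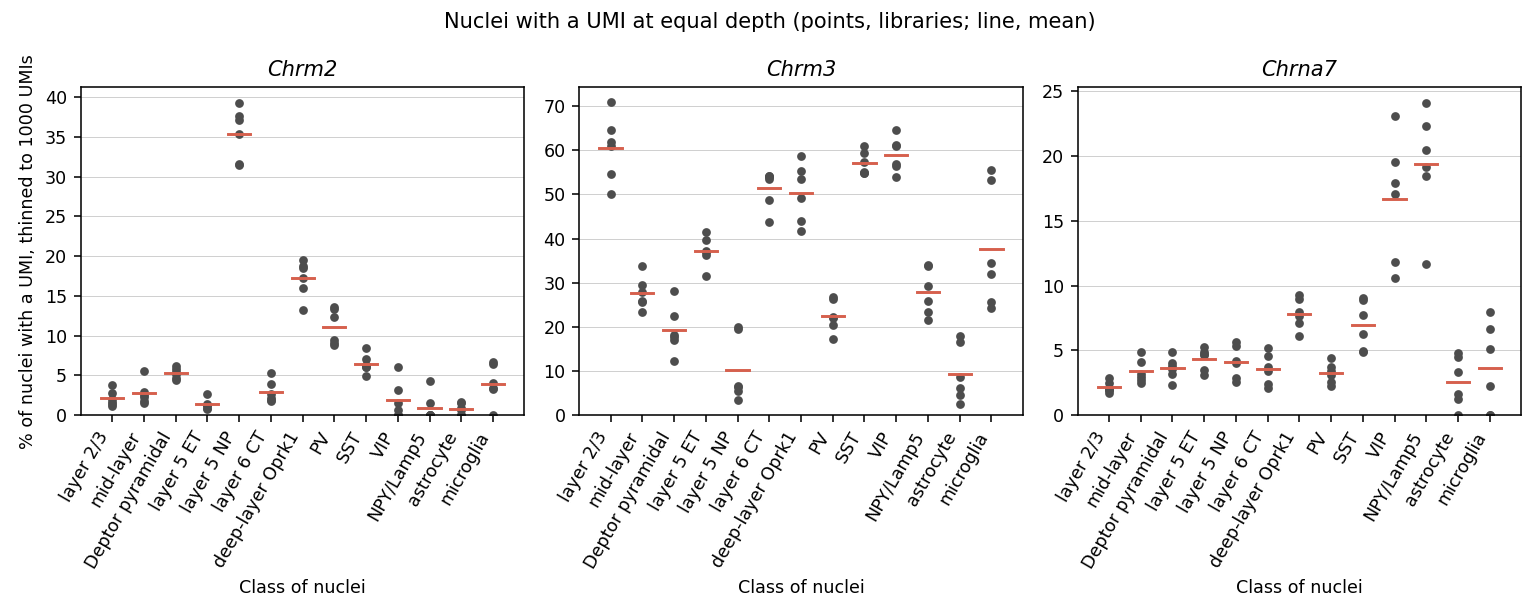
Percent of nuclei with at least 1 UMI of *Chrm2*, *Chrm3* and *Chrna7* after thinning to 1000 UMIs, in the 12 classes and microglia, with each library as a point and the mean as a line. Layer 5 NP stands at 35.4% for *Chrm2*, against 3.98% of microglia, while microglia reach 37.5% for *Chrm3*.

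Within classes the receptors also varied between subclusters, which were looked at after the values had been seen and are given as values only. PV neurons consisted of a group led by *6330411D24Rik* and *Il1rapl2* with little *Chrm2* (21.7 CPM in cohort 1 and 19.7 CPM in cohort 2) and groups with much more, led by *Corin* and *Agbl1* in cohort 1 (349.5 CPM, with *Chrm2* itself among the 10 leading genes) and by *Gm32647* or *Eya1* in cohort 2 (213.8 and 345.6 CPM). The PV mean is thus a mixture. *Chrna7* ran the other way in PV neurons, at 52.0 CPM in the first group and 18.9 CPM in the second of cohort 1, and at 41.2 against 8.0 and 8.9 CPM in cohort 2. A group of 38 SST nuclei of cohort 2 led by *Nos1* and *Tacr1* stood out with *Chrm2* at 1120 CPM (957 to 1311 per library), above layer 5 NP, and *Chrm3* at 206.8 CPM against 891.5 to 1171 CPM in the other SST groups. SST neurons led by *Plpp4* held *Chrna7* at 207.3 CPM against 39.7 and 16.7 CPM in others of cohort 2, and VIP neurons led by *Frem1* and *Cadps2* held 330.5 CPM against 129.4 CPM in those led by *Vip* and *Wnt5b* of cohort 1, but 206.3 against 170.9 CPM in cohort 2.

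The pattern over the 12 classes recurred between cohorts for 5 of the 8 members: Pearson's r of log2 class levels between cohort 1 and cohort 2 was 0.959 for *Chrna7*, 0.942 for *Chrm2* and *Chrna5*, 0.923 for *Chrm3* and 0.835 for *Chrm1*, but 0.538 for *Chrna4*, -0.371 for *Chrnb2* and 0.00694 for the scarcely detected *Chrm4*. These describe 12 classes that share their libraries. By the same measure, taking the lower r of the cohorts among 14057 genes, the profiles most like *Chrm2* were *9330158H04Rik* (0.896), *Rab38* (0.796) and *Gm48727* (0.779). Those most like *Chrm3* were *Gm26861* (0.868), *Gm47405* (0.862) and *Neto1* (0.806). *9330158H04Rik* lies antisense over *Chrm2*, and *Gm26861* and *Gm47405* overlap *Chrm3*. How strand was handled in counting is not given in the sources used here, so reads of these pairs may not be told apart. *Chrna5* was most like *Hs3st4* (0.862), a marker of layer 6 CT, *Rell1* (0.857) and *Gm27040* (0.848), and *Chrna4* most like *Chrna5* (0.758). *Chrna7* was most like *Has2os* (0.853), *Sema3c* (0.850) and *B130024G19Rik* (0.847), and *Chrm1* like *Plekhg5* (0.934), *Cep89* (0.927) and *Gm15810* (0.919).

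Other genes of acetylcholine signalling had their own classes. *Chat*, the enzyme that makes acetylcholine, was found in VIP neurons at 13.8 ± 6.18 CPM (40 UMIs), with at most 0.0855 CPM as the mean of any other class, and *Slc5a7*, the choline transporter, also led in VIP at 18.1 ± 16.5 CPM (32 UMIs). *Ache*, which breaks acetylcholine down, was highest in SST (27.5 ± 5.65 CPM) and layer 5 NP neurons (20.5 ± 8.74 CPM), whose values overlapped. *Lypd1*, a Ly6 protein of the family that binds nicotinic receptors and a marker used here for layer 5 NP, stood there at 163 ± 38.2 CPM. *Ric3*, a chaperone of α7, was highest in VIP (64.5 ± 30.9 CPM), though SST overlapped (54.8 ± 14.6 CPM). *Plcb1*, the phospholipase C downstream of Gq, was highest in layer 5 NP at 1735 ± 133 CPM. *Chrm5*, the gene of the remaining muscarinic receptor, had 1 UMI in all nuclei. These genes were picked as examples after their values had been seen, from a list of 49 other cholinergic genes.

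Run was first compared with Sed over all 6 libraries, to ask whether the mother's exercise altered receptor levels in the offspring. No receptor passed. In sums of UMIs per library and class, tested in edgeR's quasi-likelihood model with cohort and housing as terms and Benjamini-Hochberg adjustment over all genes, 0 of 70 receptor tests in 14 sets of nuclei (12 classes, pyramidal and all nuclei) had an adjusted p below 0.05, and the lowest adjusted p was 0.68. Of all genes, 0% were called in all nuclei and in pyramidal nuclei, 0.00697% in layer 2/3, 0.0227% in the mid-layer class and likewise in *Deptor* neurons, 0.0479% in layer 5 ET, 0.14% in layer 5 NP, 0.0153% in layer 6 CT and 0.0505% in *Oprk1* neurons. Among the others 0.119% were called in PV, 0.0786% in SST, 0.0138% in VIP, 0.0346% in NPY/Lamp5 and 0.0921% in astrocytes. *Chrm3* was tested in 14 sets, with Run against Sed log2 differences from -0.18 to 0.24, *Chrna7* in 14 (-0.36 to 0.65), *Chrm1* in 13 (-0.32 to 0.27), *Chrm2* in 12 (-0.43 to 0.15), *Chrnb2* in 7 (-0.46 to 0.66), *Chrna4* in 6 (-0.36 to 0.57) and *Chrna5* in 4 (-0.46 to 0.08). *Chrm4* was too low in every set. In the top classes, *Chrm2* of layer 5 NP read 519, 459 and 431 CPM in Run libraries and 525, 426 and 560 CPM in Sed libraries, which overlapped. The count of tests under 0.05 before adjustment was 1 of 70, against 6.78% of the tests over all genes and sets. It was *Chrna7* in NPY/Lamp5 neurons (log2 difference 0.65, SE 0.23), whose adjusted p was 0.86 by the same edgeR test. Its Run values were 333, 433 and 270 CPM against 125, 265 and 285 CPM for Sed, higher in 2 of 3 pairs. With 2 residual degrees of freedom and pooled libraries, p-values measure the spread between these libraries alone.

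Within cohort 2 some tests passed, for the receptors about as often as for all genes. Leaving out either library of cohort 1, so that the Run against Sed difference rested on the 2 pairs of cohort 2 with 1 residual degree of freedom, gave 6 calls of 73 receptor tests (8.22%) without Run GH and 6 of 74 (8.11%) without Sed GH, against 6.3% and 6.44% of the tests over all genes and sets. Both fits rest on the same 4 libraries of cohort 2 and are no independent support for each other. Without the Run GH library of cohort 1, *Chrm3* differed by -0.42 (log2) in layer 2/3 (adjusted p = 0.000385), -0.40 in *Deptor* neurons (0.00153), -0.40 in *Oprk1* neurons (0.00121), -0.23 in pyramidal nuclei (0.0107) and -0.24 in all nuclei (0.0199), and *Chrna5* by -0.84 in layer 6 CT (0.0270), all by the edgeR test. In these sets 8.14%, 7.61%, 3.08%, 16.3%, 14.1% and 4.06% of all genes were called. Without the Sed GH library of cohort 1 the same 6 were called, with adjusted p of 0.000174, 0.00143, 0.00336, 0.00756, 0.0085 and 0.0255, and 8.4%, 7%, 2.65%, 16.7%, 16% and 4.29% of all genes were called. *Chrm3* of layer 2/3 was 977 and 817 CPM in the Run libraries of cohort 2 against 1146 and 1094 CPM in the Sed libraries, so Run lay below Sed there, while Run lay above Sed in cohort 1 (1403 against 1176 CPM).

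The cohorts were therefore compared directly, by a term for the difference of the Run against Sed effect between them. The cohort 2 side of this term joins the GH and SI pairs, whereas cohort 1 holds a GH pair alone. It called 8 of 73 receptor tests, 6 of *Chrm3* and 2 of *Chrna4*, where 4.66% of the tests over all genes and sets were called. The 1 residual degree of freedom comes from the GH and SI pairs of cohort 2. The single pair of cohort 1 adds none, so the SE and p-values below do not measure spread between pairs in cohort 1. The effect on *Chrm3* differed by -0.71 (log2, cohort 2 minus cohort 1) in layer 2/3 (SE 0.15, adjusted p = 0.00216, edgeR), where 4.67% of all genes were called. In *Deptor* neurons it differed by -0.87 (SE 0.16, adjusted p = 8.29e-06, with 5.06% of genes called), in *Oprk1* neurons by -0.69 (SE 0.15, adjusted p = 0.000628, 3.28%) and in the mid-layer class by -0.65 (SE 0.15, adjusted p = 0.00921, 3.76%), all by the edgeR test. Over pyramidal nuclei it differed by -0.50 (SE 0.12, adjusted p = 0.000831, 12.7%) and over all nuclei by -0.46 (SE 0.11, adjusted p = 0.00732, 10.4%). None of the 8 passed when DESeq2 took the place of edgeR, where their adjusted p lay between 0.156 and 0.569.

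In the pairs of libraries the turn was clear in layer 2/3, while elsewhere the GH pair of cohort 2 often lay near 0. In layer 2/3 the log2 ratio of Run to Sed was 0.26 (95% counting interval 0.22 to 0.29) in GH of cohort 1, -0.23 (-0.29 to -0.17) in GH of cohort 2 and -0.42 (-0.48 to -0.37) in SI of cohort 2. In *Deptor* neurons the 3 ratios were 0.43, -0.08 (-0.24 to 0.09) and -0.49, in *Oprk1* neurons 0.26, -0.16 (-0.29 to -0.02) and -0.43, and in the mid-layer class 0.41, -0.04 (-0.17 to 0.09) and -0.22. Over pyramidal nuclei they were 0.23, -0.02 (-0.06 to 0.02) and -0.27, and over all nuclei 0.19, -0.04 (-0.08 to -0.0033) and -0.26. Layer 6 CT gave 0.01, 0.20 and 0.07, with a cohort difference of 0.02 (adjusted p = 0.97, edgeR, with 4.35% of genes called). Layer 5 NP turned the other way, at -0.32, 0.48 and 0.69, but its cohort difference of 0.83 (SE 0.28) did not pass (adjusted p = 0.12, edgeR, 1.75% called), and neither did that of PV neurons (0.57, adjusted p = 0.22, edgeR, 1.19% called) or layer 5 ET (-0.26, adjusted p = 0.53, edgeR, 3.63% called). SST (-0.44, adjusted p = 0.37, edgeR, 0.782% called), VIP (0.00, 0.307% called), NPY/Lamp5 (-0.28, 0% called) and astrocytes (0.46, 0.0807% called) did not pass. Whether the classes differed from one another in this was not tested. The intervals cover counting error only.

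**Figure D4:**
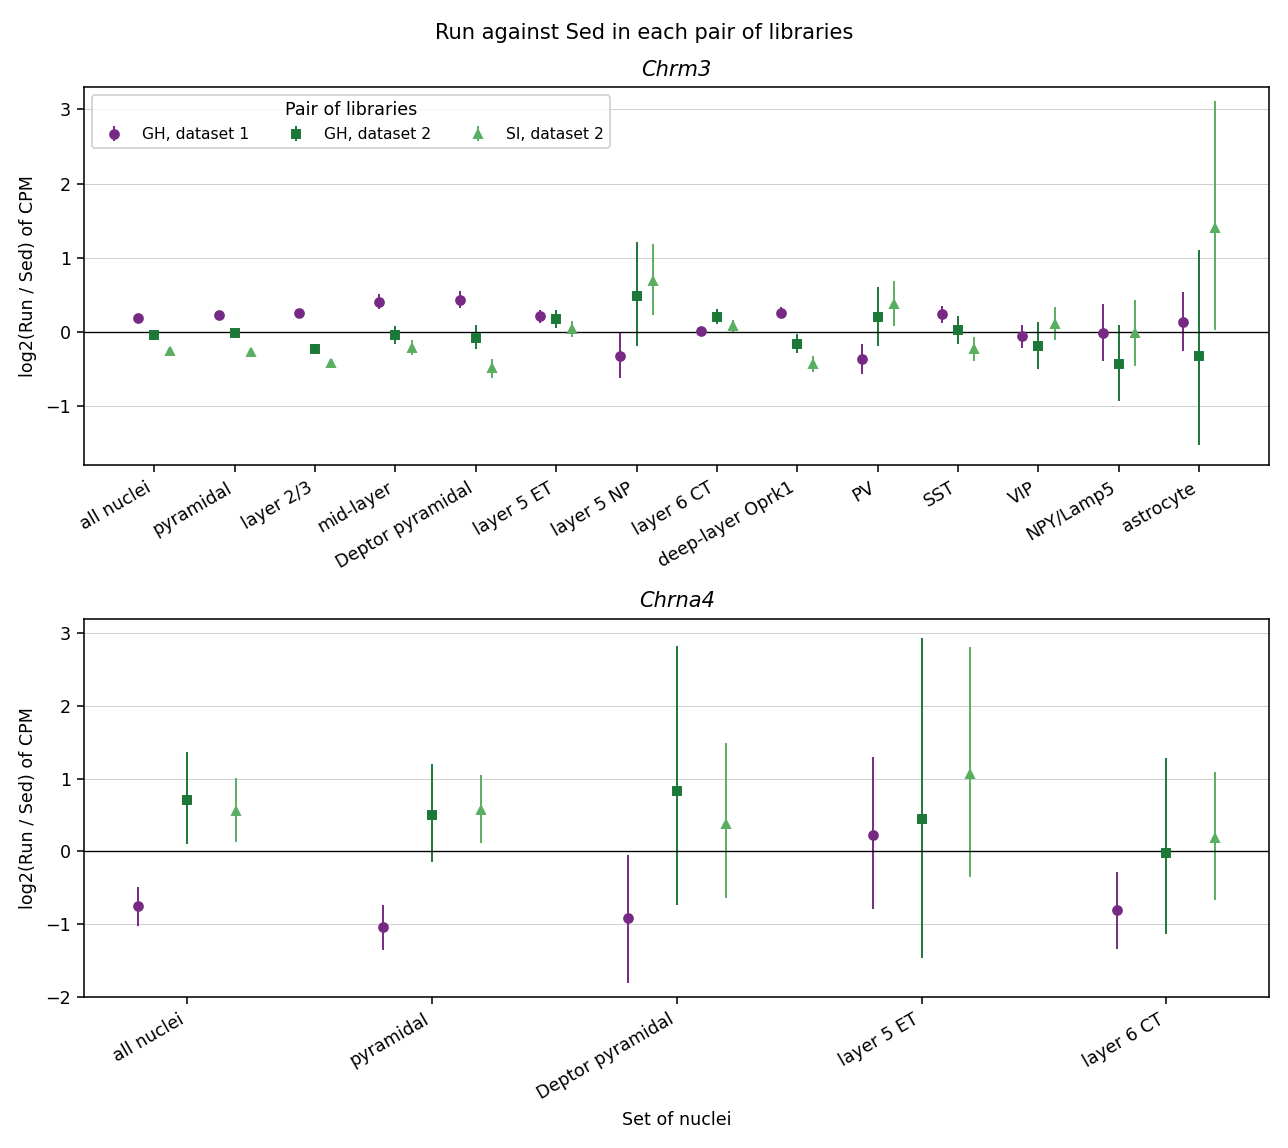
Log2 ratio of Run to Sed CPM in the 3 pairs of libraries (GH of cohort 1, GH of cohort 2, SI of cohort 2) for *Chrm3* in 14 sets of nuclei and *Chrna4* in 5, with bars for the 95% counting interval. For *Chrm3* in layer 2/3 the cohort 1 pair lies above 0 (0.26) and both cohort 2 pairs below it (-0.23 and -0.42), and for *Chrna4* in pyramidal nuclei the order is turned (-1.04, 0.50 and 0.57).

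*Chrna4* moved in the opposite direction. Its Run against Sed effect differed between cohorts by 1.46 (log2, cohort 2 minus cohort 1) in pyramidal nuclei (SE 0.36, adjusted p = 0.0011, edgeR) and by 1.25 in all nuclei (SE 0.32, adjusted p = 0.0107, edgeR). With free RNA subtracted, assumed to be 10% of the UMIs in every library, these became 2.85 and 2.69. The counts were small for this step: Sed GH of cohort 2 held 24 UMIs of *Chrna4* in pyramidal nuclei and 26 in all nuclei. Its free RNA held *Chrna4* at 20.5 CPM, against 2.47 CPM in its pyramidal nuclei. Whether free RNA made up an equal part in both cohorts was not tested. The pyramidal levels were 3.49 (Run GH) and 7.19 CPM (Sed GH) in cohort 1, and 3.49 (Run GH), 2.47 (Sed GH), 4.46 (Run SI) and 2.997 CPM (Sed SI) in cohort 2. The Sed GH library of cohort 1 was the high one. That library also held the largest share of layer 6 CT neurons, a top class of *Chrna4*, at 23.8% of its pyramidal nuclei against 10.2% in Run GH of cohort 1 and 11.7 to 17.6% in cohort 2. Within layer 6 CT the cohort difference of *Chrna4* was 0.81 (adjusted p = 0.44, edgeR) and within *Deptor* neurons 1.30 (adjusted p = 0.30, edgeR). In sums over classes, more nuclei of a class and more RNA per nucleus cannot be told apart, and the part of this share in the *Chrna4* result was not tested.

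Several measures went with the cohort, and so stand beside the *Chrm3* and *Chrna4* results. The cohorts also differ in behavioural testing and selection by rank, which cannot be told apart from the cohort. In the same test, 1072 genes of at least 200 kb had a median cohort difference of -0.18 in all nuclei, with 33 called higher and 195 called lower. In layer 2/3 the median of 989 such genes was -0.13 (17 higher, 60 lower) and in *Deptor* neurons -0.17 (24 higher, 116 lower), while layer 6 CT, where *Chrm3* did not pass, had -0.18 (12 higher, 80 lower). *Chrm3* is itself among these long genes. The parts of gene length, depth and free RNA in these results were not tested.

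Single housing was compared with group housing to ask whether social isolation shifted the receptors. None of 70 receptor tests passed (edgeR, Benjamini-Hochberg), where 0.00983% of all genes were called in SST neurons, 0.0263% in astrocytes and 0% in the other 12 sets. The count under 0.05 before adjustment was 1 of 70, against 1.83% of the tests over all genes and sets. It was *Chrna5* in layer 5 NP (log2 difference 0.88, SE 0.40), whose adjusted p was 0.9997 by edgeR. Its Run SI library, at 35.7 CPM, was high against Run GH at 14.4 CPM, while Sed SI at 19.5 CPM lay below Sed GH of cohort 2 at 22.3 CPM, so the pairs went opposite ways. The effects on *Chrm3* lay between -0.31 and 0.17 over 14 sets. Whether the Run against Sed effect differed between SI and GH was asked by a further term, and 0 of 73 receptor tests passed, with 0.0605% of all genes called in layer 5 ET, 0.0183% in PV, 0.0118% in VIP and 0% in the other 11 sets. Before adjustment 4 of the 73 were under 0.05, against 1.59% of the tests over all genes and sets. They were *Chrm3* in *Deptor* neurons (log2 difference -0.73), *Chrm2* in PV (0.76), *Chrna7* in VIP (-0.94) and *Chrna7* in NPY/Lamp5 neurons (-1.18). SI was sampled in cohort 2 alone, with 2 libraries. The GH side of the further term pooled the pairs of both cohorts, so the cohort 1 pair also entered these differences.

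Of the other 49 cholinergic genes, 0 of 404 tests were called for Run against Sed and 0 of 404 for housing (edgeR), where 0.0388% and 0.00182% of the tests over all genes and sets were called. Before adjustment 20 (Run against Sed, 4.95%) and 15 (housing, 3.71%) of the list's tests lay under 0.05, against 6.78% and 1.83% over all genes. The Run against Sed effect differed between cohorts in 36 of 414 tests, 16 higher and 20 lower (edgeR), where 8258 of 177107 tests over all genes and sets (4.66%) were called, 2551 higher and 5707 lower. Of the Gq arm, 16 of 155 tests were lower and 3 higher, and the lower ones were led by *Kcnq5*, a subunit of the M channel that Gq signalling closes, in 7 sets (-0.74 to -0.51), and by *Plcb1* in 5. Some of the sets share nuclei, and the part of gene length in these calls was not tested. Of the chaperones and Ly6 partners, 8 of 97 were higher, and all 8 were *Ly6h* (0.79 to 1.13), which is thought to restrain α7. The Gi arm gave 3 higher and 3 lower of 123, acetylcholine synthesis and breakdown 2 higher and 1 lower of 29, and other receptor subunits 0 of 10. *Ly6h* in layer 2/3 was 77.0 and 115 CPM in cohort 1 and 330 to 542 CPM in cohort 2, so that the cohorts differed in its level as well.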

How the data were processed

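Nuclei of the PL were profiled with the 10x Chromium 3' V3 kit. The deposited values are raw UMI counts per gene and barcode, made by the authors with Cell Ranger 6.0.0 on mm10 with introns included per the methods and processing notes (the file header names an earlier major version), for all barcodes. How strand was handled is not given in the sources used here. Barcodes with 500 to 4000 genes and at most 1% mitochondrial UMIs were kept, as in the methods, but up to 103391 per library passed. A UMI minimum, between 621 and 3156, was therefore added after the data were seen. Per library, as many barcodes of highest UMI count were taken as the study states nuclei. The minimum was the 99th percentile of their UMIs divided by 10, and so depended on the stated number. It left fewer nuclei than the study states in 5 libraries and more in 1. Nuclei were clustered per cohort (scanpy 1.11.5, Pearson residuals of 3000 genes, 35 components, Leiden resolution 0.6), with receptor and cholinergic genes left out, and named from fixed markers. A class led by other cells' markers stayed unnamed, and cell names are rebuilt, not the authors'. Doublets, called per library (1.09 to 6.75%), were kept, and removed in an alternative.

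UMIs were summed per library and class, expressed as CPM, and tested with edgeR 4.0.16 (TMM, quasi-likelihood, Benjamini-Hochberg, threshold 0.05). The main model had terms for cohort, Run against Sed and housing (2 residual degrees of freedom), and interactions left 1. DESeq2 1.42.0, other filters, other clusterings and leave-one-out were alternatives. On simulated data for Run against Sed, the edgeR step recovered 32 to 71% of genes changed by 1 log2 unit and 79 to 98% of those changed by 2. For the cohort difference these were 0 to 14% and 21 to 67%. For housing they were 13 to 62% and 62 to 89%, and for the Run against Sed effect by housing 1 to 16% and 12 to 60%. The replicate number in the labels is the cohort, so cohort is the block of the model, taken from the design and not from the data.

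All 8 members were named in every class. Other genes were named where called, or as examples after their values were seen. The members and lists were chosen with earlier results of these data known. Nuclei, not mice, were counted, and the 6 pooled libraries (19134955 to 188952936 total UMIs) are the replicates.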

Additional observations from a re-analysis of the deposited data

Results flagged for a closer look

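The Run against Sed effect differed between cohorts by the edgeR interaction test for *Chrm3* in all nuclei (log2 difference -0.46, cohort 2 minus cohort 1), pyramidal nuclei (-0.50), layer 2/3 (-0.71), the mid-layer class (-0.65), *Deptor* neurons (-0.87) and *Oprk1* neurons (-0.69). It differed for *Chrna4* in all nuclei (1.25) and pyramidal nuclei (1.46). These 8 calls came from 73 receptor tests in sets that share nuclei, where 4.66% of the tests over all genes and sets were called. The cohort 2 side joins GH and SI pairs, and cohort 1 holds 1 GH pair alone, so spread between pairs in cohort 1 was not measured. None of the 8 calls passed in DESeq2.

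Barcodes with under 100 UMIs, which the comparisons did not use, carried receptor UMIs in every library. The lowest library held *Chrm1* at 53.4 CPM, *Chrm2* at 30.3 CPM, *Chrm3* at 130.5 CPM, *Chrna4* at 8.84 CPM, *Chrna7* at 8.52 CPM and *Chrnb2* at 6.76 CPM, each above the limit that a count of 0 allows. *Chrna4* and *Chrnb2* stood above the nuclei there in 6 of 6 libraries, *Chrm1* in 5, *Chrna7* in 1, and *Chrm2* and *Chrm3* in 0.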

How the results depend on the processing

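The count of receptor tests called for Run against Sed, 0, became 6 without the Run GH library of cohort 1 and 6 without its Sed GH library (*Chrm3* in 5 sets that share nuclei and *Chrna5* in 1), a range of 0 to 6 when each library was left out in turn, with 10865 and 11500 calls over all genes and sets against 64. The 8 receptor calls of the cohort difference became 0 in DESeq2 (7 at an unadjusted p below 0.05, and 1042 calls over all genes against 8258), where their adjusted p lay between 0.156 and 0.569, and stayed 8 under the other 8 settings. For *Chrna4* the size ranged from 1.23 to 2.69 in all nuclei and from 1.46 to 2.85 in pyramidal nuclei. The upper ends came from subtracting an assumed 10% of free RNA from small counts. For *Chrm3* in *Deptor* neurons the range was -1.20 to -0.76. Without the replicate block (cohort) there were 0 receptor calls for Run against Sed and 0 for housing, as with it. The class with the highest level was the same for 5 of 8 genes with at least 1000 genes per barcode (VIP led for *Chrm3*, layer 6 CT for *Chrna4* and SST for *Chrnb2*), and for 6 to 8 when a library was left out. The class with the highest share was the same for 4 of 8 with all nuclei at their own depth and for 6 of 8 at 1500 UMIs. The fit with at least 1000 genes per barcode was not run for VIP and astrocyte nuclei, which fell under 20 in a library, and leaving out a library left the interaction terms no residual degrees of freedom. Settings for the interaction terms beyond the counts' scaling and filters were chosen after seeing the data. Depth limits *Chrm4*, *Chrnb2*, *Chrna4* and *Chrna5*, with 33 to 865 UMIs each.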
